A study of Mus musculus with 4 samples.

Results

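Tumour suppressor genes hold back proliferation or survival, and their loss is a common step in cancer. The 8 genes described here were listed by name and not by a cutoff on any measured value, though earlier results of these data were known. They are Trp53, Cdkn2a, Cdkn2b, Rb1, Nf1, Stk11, Smad4 and Cdkn1b, of 21631 protein-coding genes on chromosomes 1 to 19 and X. For each gene, every peak of a Malat1 ChIRP series with its summit in the gene body or within 5 kb of either end (the window) was taken. Summits were also counted in the 1 Mb on either side of that window (the flanks), to find stretches without peaks. In ChIRP, biotin-labelled oligonucleotides complementary to an RNA pull it down from sonicated nuclei, and the DNA recovered with it is sequenced. Malat1 is an abundant nuclear long noncoding RNA. All libraries came from 4T1-TGL, a mouse breast cancer line of strain BALBC with genotype WT. The 4 groups of 1 library each were an Even pull-down, an Odd pull-down, a Lacz pull-down and an input, the last titled Even input. No drug, dose or time is given in their labels. They are represented by 1 list of 77823 peaks from a merged treatment and 1 input. The sources used here do not give the pull-downs that went into the treatment, so the probe pools were not compared, and no value below has a replicate error. Peaks were called against the input and not against the Lacz pull-down. A peak is therefore not shown here to be particular to Malat1.

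These genes act at linked points. The p53 protein, encoded by Trp53, is a transcription factor that stops the cell cycle or starts cell death after DNA damage. The Cdkn2a locus encodes both p16Ink4a, which inhibits cyclin-dependent kinases, and p19Arf, which protects p53 from Mdm2. Cdkn2b and Cdkn1b encode other kinase inhibitors, and Rb1 encodes the protein that these inhibitors keep active and that restrains E2F factors. Nf1 encodes neurofibromin, which switches off RAS, Stk11 encodes LKB1, the kinase upstream of AMPK, and Smad4 encodes the shared SMAD of TGF-beta signalling.

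The windows of the 8 genes held 20 distinct summits. At least 1 summit lay in the window of 5 genes (Trp53, Rb1, Nf1, Stk11 and Smad4), and in the body itself of 3, with 10 in Nf1, 7 in Rb1 and 1 in Smad4. Cdkn2a, Cdkn2b and Cdkn1b had 0 in their windows. The share with a summit in the window was 60.8% over all protein-coding genes. The windows differed in length from 14.7 kb at Cdkn2b to 252 kb at Nf1, and the longest 2 held 17 of the 20 summits. Without peaks of 3 tags, which is the fewest a peak of the list holds, Rb1, Nf1 and Smad4, 3 of the 8 genes, had a summit. The share over all genes is not given here for the body alone or without peaks of 3 tags. Those 2 counts are therefore description only. A tag is a treatment read that remained after duplicate removal, and the treatment held 851227 of them against 50030325 in the input. The median peak of the list held 5 tags, with an authors' fold enrichment over input of 133, and 37.2% of all peaks held 3 tags. In the windows 10 of 20 peaks held 3 tags. The fold is the height at the summit relative to local input scaled to the treatment, as the authors' peak caller gave it, so few tags can give a large fold at this depth.

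Against the density of their own flanks, none of the 8 genes differed by the test. Each window count was compared with the flanks by a two-sided exact binomial test, fitted for all 21420 protein-coding genes with a summit in reach and adjusted over all of them by the Benjamini-Hochberg method. At an adjusted p below 0.05, 0.0794% of all tested genes were called with more summits than their flanks predicted and 0.042% with fewer, and 0 of the 8 were called. Unadjusted p was below 0.05 for 0 of the 8 genes and for 5.28% of all genes. The adjusted p was 1 for each of the 8. The test takes summits as independent positions and describes this list, not replicates. Nf1, Rb1 and Trp53 had more summits than predicted, and 5 had fewer. The median ratio of counted to predicted summits was 0.615 over the 8 genes and 0.765 over all protein-coding genes.

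**Figure D1:**
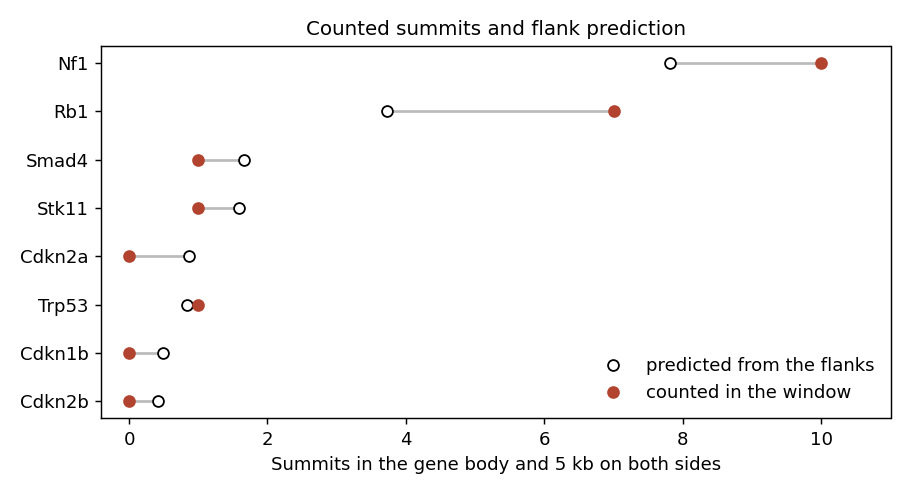
Summits counted in each window (filled circles) and predicted from the density of its flanks (open circles), in summits, for the 8 genes ordered by prediction. Nf1 held 10 summits with 7.81 predicted and Rb1 held 7 with 3.72, and the windows of Cdkn2a, Cdkn2b and Cdkn1b held 0 with under 1 predicted.

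Nf1 carried the strong peaks of the group. The gene (chromosome 11, 79339590 to 79581609, GRCm38, gene ID 18015) spans 242 kb, and all 10 summits of its window lay in its body, spread over 234 kb. From the lower to the higher coordinate, the peaks held 17, 12, 30, 3, 3, 15, 3, 5, 16 and 3 tags. Larger and smaller peaks were mixed along the gene, with 5 peaks of 12 tags or more and 4 peaks of 3 tags. The 5 well-filled peaks held 90 tags, and Nf1 as a whole held 107 of the 144 tags in the peaks of all 8 windows (74.3%).

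The Nf1 peak with the most tags and the highest fold, at 79433645 to 79434027, held 30 tags and reached a fold of 539 (rank 1351 of the list). Peaks at 79388748 to 79388954 and 79563602 to 79563776 had folds of 497 and 487. The first peak, from 79341096 to 79341302, held 17 tags at a fold of 409 and had its summit 1.26 kb downstream of the annotated first base of Nf1. Over the 7 annotated starts of 6 of the genes this was the shortest distance to a summit. A further pair of peaks, at 79502821 to 79502951 with 3 tags and 79502969 to 79503202 with 15, lay at Omg, a gene for an oligodendrocyte myelin glycoprotein that sits inside Nf1, so their summits belong to both genes. All told, 5 of the 10 Nf1 peaks ranked in the top 10% of the list by fold and 7 lay at or above its median fold. The implied input, which is the scaled local input at a peak in units of the genome mean and is never below 1 by construction, ran from 1.00 to 1.38 over these peaks.

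The count of Nf1 summits was 1.28 times its flank prediction (10 against 7.81, 95% exact interval of the density ratio 0.585 to 2.51, exact binomial p = 0.45). The interval covers counting error only and takes summits as independent. Gene and flanks differed little in density, with 39.7 summits per Mb in the window and 31.0 in the flanks. The flank peak of highest fold, 479 kb away on the lower-coordinate side, had 24 tags and a fold of 462, below the 3 highest folds inside the gene. No flank peak of Nf1 held at least 30 tags.

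Rb1 held nearly as many peaks, and all of them were small. The gene (chromosome 14, 73192858 to 73325951, gene ID 19645) spans 133 kb, and its 7 summits lay in the body, over 90.0 kb towards the higher-coordinate end. In order of position the peaks held 4, 3, 4, 3, 3, 3 and 5 tags. The range from 3 to 5 tags lies at or below the median of the whole list. The highest fold was 226 at 73315670 to 73315773, rank 15138, and the lowest was 49.5 at 73254595 to 73254728, where the implied input was 2.42. None of the 7 ranked in the top 10% of the list by fold and 2 lay at or above its median. The strength of Nf1 and Rb1 peaks was not tested, since peaks of 1 treatment are not replicates.

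The 7 Rb1 summits were 1.88 times the 3.72 predicted by its flanks (95% exact interval of the density ratio 0.721 to 4.16, exact binomial p = 0.11). This is the largest ratio of the 8 genes, and it varied with the peaks counted. Without peaks of 3 tags it was 1.398. Among peaks with a deposited score of at least 100, a stricter threshold, the ratio was 0.538, and among peaks at or above the median fold it was 0.847. Just outside the window, 9.63 kb below the gene, stood the peak with the most tags and the highest fold in the Rb1 flanks, from 73182946 to 73183454, which held 108 tags at a fold of 924 (rank 86). It lay in Rcbtb2, a gene with RCC1 and BTB domains. The contrast along this short distance was between 108 tags in the Rcbtb2 peak and at most 5 in any Rb1 peak. The Rcbtb2 peak was the only 1 of the 52 Rb1 flank peaks with at least 30 tags. The median flank peak held 4.5 tags, within the range of the Rb1 peaks.

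**Figure D2:**
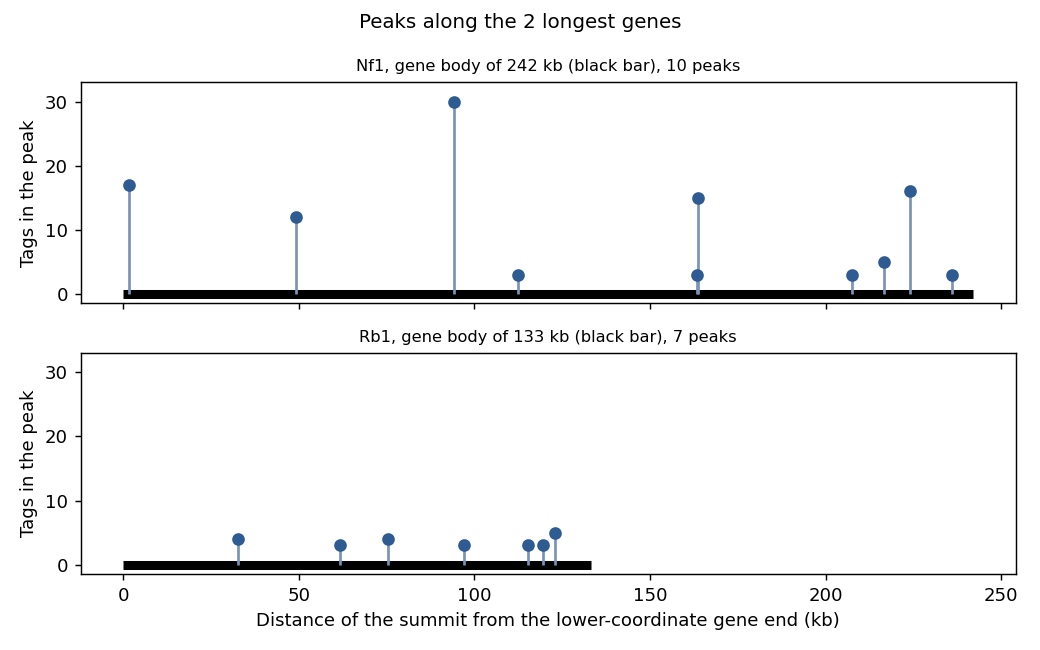
Tags in each peak (vertical axis) against the distance of its summit from the lower-coordinate end of the gene in kb (horizontal axis), for Nf1 and Rb1, with the gene body as a black bar. Nf1 has peaks of 12 to 30 tags among peaks of 3 to 5, and the 7 Rb1 peaks hold 3 to 5 tags each.

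Smad4 held 1 peak. The gene (chromosome 18, 73634790 to 73703791, gene ID 17128) spans 69.0 kb, and the peak at 73670723 to 73670879 lay 36.0 kb from its lower end, with 6 tags, a fold of 143 and an implied input of 1.67. Its flanks predicted 1.66 summits, a ratio of 0.603 (95% exact interval 0.0149 to 3.55, exact binomial p = 1). The direction depended on the window, since with 10 kb on either side the ratio was 1.10, and with scores of at least 100 it was 1.05. Outside the window, a peak of 10 tags stood 6.93 kb below the gene.

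The single summits counted for Trp53 and Stk11 lay outside those genes, in a neighbour. Trp53 (chromosome 11, 69580348 to 69591873, gene ID 22059) spans 11.5 kb, and the peak at 69578802 to 69578876 held 3 tags with a fold of 128. Its summit was 1.52 kb upstream of the annotated first base of Trp53 and inside Wrap53, the adjoining gene for a Cajal body protein. Wrap53 had 3 summits in its own window. No summit lay in the Trp53 body. With 0.840 predicted, the ratio was 1.19 (95% exact interval 0.0298 to 6.83, exact binomial p = 0.57), and with the body alone, or without peaks of 3 tags, it was 0.

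Stk11 (chromosome 10, 80115767 to 80130679, gene ID 20869) spans 14.9 kb. The peak counted for it, at 80131447 to 80131577, held 3 tags with a fold of 67.2, rank 70303 of the list, at an implied input of 1.78. Its summit lay 0.805 kb past the higher-coordinate end, inside Cbarp, a gene for a regulator of calcium channels. The flanks predicted 1.59 summits, a ratio of 0.627 (95% exact interval 0.0158 to 3.56, exact binomial p = 1). With 10 kb on either side the ratio was 1.83, and the direction thus changed with the window.

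The 3 kinase inhibitor genes had no summit in reach of 5 kb. Cdkn2a (chromosome 4, 89274473 to 89294619, gene ID 12578) spans 20.1 kb and Cdkn2b (89306289 to 89311032, gene ID 12579) spans 4.74 kb. The genes lie 11.7 kb apart and share 56 of their flank summits, so they are not separate observations. Their flanks predicted 0.859 and 0.413 summits. Cdkn1b (chromosome 6, 134920401 to 134925525, gene ID 12576) spans 5.13 kb, and 0.484 summits were predicted. A count of 0 could not have passed the test at any of the 3. If summits fell evenly over window and flanks, a count of 0 would have a probability of 0.426 at Cdkn2a, 0.663 at Cdkn2b and 0.617 at Cdkn1b. The 95% exact intervals of the density ratio reached up to 4.44, 9.24 and 7.85, so neither fewer summits nor a severalfold excess could be told apart from the flank density at this depth. Among all protein-coding genes with a prediction below 1, 61.2% likewise had no summit.

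The Cdkn2a and Cdkn2b genes lay together in a summit-free stretch of 130 kb, from 89247496 to 89377472. It held no other protein-coding gene. Of 77693 stretches between neighbouring summits, 3.59% were at least as long, and the median was 17.0 kb. This share counts every stretch once, whereas a long stretch covers more sequence than a short one and can hold more genes. The share of genes that lie in a stretch this long is not given here, so 3.59% does not measure rarity among genes. Both edges of the 130 kb stretch were peaks above the median fold of the list. On the lower side, 27.0 kb from Cdkn2a, the peak at 89247420 to 89247652 held 22 tags with a fold of 480, the highest fold in the flanks of both genes, where 1 other peak held at least 30 tags. On the higher side, 66.4 kb from Cdkn2b, the peak at 89377419 to 89377528 held 9 tags with a fold of 388. The implied input at these edges was 1.25 and 1.08 times the genome mean. The list gives the input only at peaks, so the input inside the stretch was not measured here.

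Both starts of Cdkn2a lie in this stretch, and their sequences are shown because they are the places from which its products are transcribed and the summit nearest to either was 34.7 kb away. The 100 bases before each annotated first base are printed 5′ to 3′ on the gene's strand (the minus strand, RefSeq, GRCm38.p6), with every CpG in capitals. The start at the higher coordinate, chr4:89294620-89294719, had a GC content of 77.0% and 15 CpG, and its first base was 47.1 kb from a summit. The other, chr4:89282193-89282292, had a GC content of 66.0% and 2 CpG.
Cdkn2a start at the higher coordinate: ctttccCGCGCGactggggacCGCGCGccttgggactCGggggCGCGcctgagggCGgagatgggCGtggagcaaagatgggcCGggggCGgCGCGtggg
Cdkn2a start at the lower coordinate: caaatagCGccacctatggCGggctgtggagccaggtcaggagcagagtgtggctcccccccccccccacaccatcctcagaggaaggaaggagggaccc

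Cdkn1b was the only protein-coding gene wholly inside a stretch of 111 kb, from 134869288 to 134979926, and 5.11% of all stretches were at least as long. Both edges were weak peaks of 3 tags, with folds of 67.2 and 167. The other genes lay in or across shorter stretches. The longest that touched the gene body was 85.4 kb at Smad4 (8.52% of stretches at least as long), 56.8 kb at Rb1 (16.1%), 50.8 kb at Nf1 (18.6%), 38.4 kb at Stk11 (26.0%) and 35.7 kb at Trp53 (28.0%). Trp53 and Stk11 were wholly inside theirs. For none of the 8 genes did the stretch at the gene reach the top 1% of stretches, which begins at 225 kb. These shares likewise count stretches and not the genes that lie in them.

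**Figure D3:**
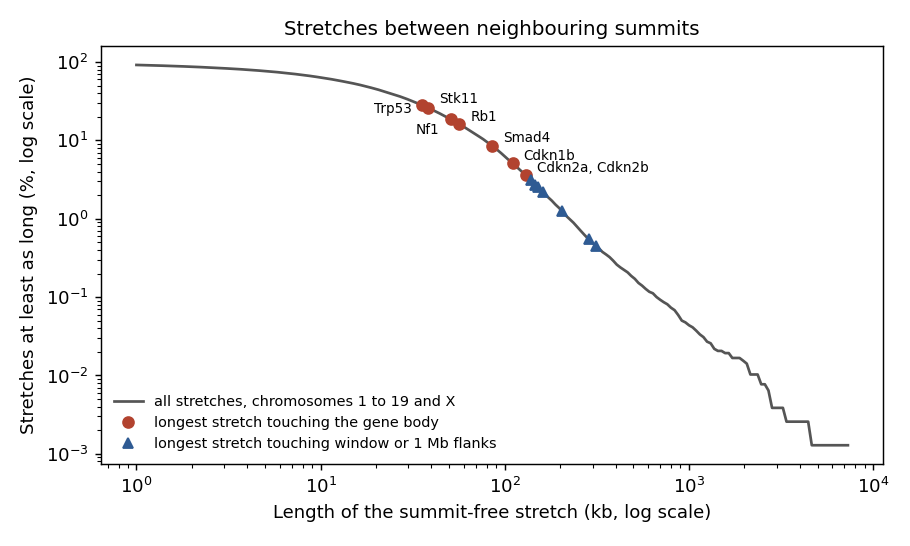
Share of all 77693 summit-to-summit stretches that are at least as long as a given length (line, both axes logarithmic, length in kb and share in percent). Circles mark the longest stretch that touches each gene body, from 35.7 kb at Trp53 to 130 kb at Cdkn2a and Cdkn2b, and triangles the longest that touches its window or 1 Mb flanks, from 138 to 313 kb.

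Summits were present on both sides of every one of the 8 genes, and 6 of the 8 had fewer per Mb in the flanks than the median of all protein-coding genes. The flanks of the 8 genes held 483 distinct summits. Density in them ran from 21.0 summits per Mb at Smad4 to 64.0 at Stk11, with a median of 33.5 over the flanks of all protein-coding genes and a 5th to 95th percentile range of 6.50 to 71.5. Smad4 stood at percentile 19.8 of all genes, Rb1 at 29.7 (26.0 per Mb), Cdkn2b at 34.4 (28.0), Cdkn2a at 35.8 (28.5), Nf1 at 42.8 (31.0), Cdkn1b at 45.5 (32.0), Trp53 at 63.5 (39.0) and Stk11 at 93.1. None of the 8 lay outside that range. Of 160 flank bins of 100 kb, 8 (5%) had no summit, against 13.7% of 24388 such bins on all autosomes, which include stretches far from genes. Those of Cdkn2a and Cdkn2b overlap. The 8 empty bins were 4 at Smad4, 2 at Stk11, and 1 each at Rb1 and Cdkn1b.

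The sides of a gene could differ. Stk11 had 42 summits in its lower flank and 86 in its higher flank, and its fullest bin held 16. Smad4 had 13 and 29, with all 4 of its empty bins on the lower side. The sides were nearly equal at Rb1 (27 and 25), Cdkn2a (28 and 29) and Cdkn2b (27 and 29), and differed by 6 to 8 summits at Trp53 (43 and 35), Nf1 (35 and 27) and Cdkn1b (35 and 29). The asymmetry was not tested. The median implied input of flank peaks ran from 1.17 at Smad4 and Cdkn1b to 1.58 at Stk11, the gene with the densest flanks. It exceeded the median of the gene's own chromosome at 5 of the 8: Stk11 (chromosome median 1.42), Cdkn2a, Cdkn2b, Rb1 and Smad4, the last having the sparsest flanks. The values were close at Smad4 (1.17 against 1.13) and Rb1 (1.21 against 1.13), and Cdkn2a and Cdkn2b share most flank summits. The share over all genes is not given here, so this count is description only. The part of input in the density was not tested.

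**Figure D4:**
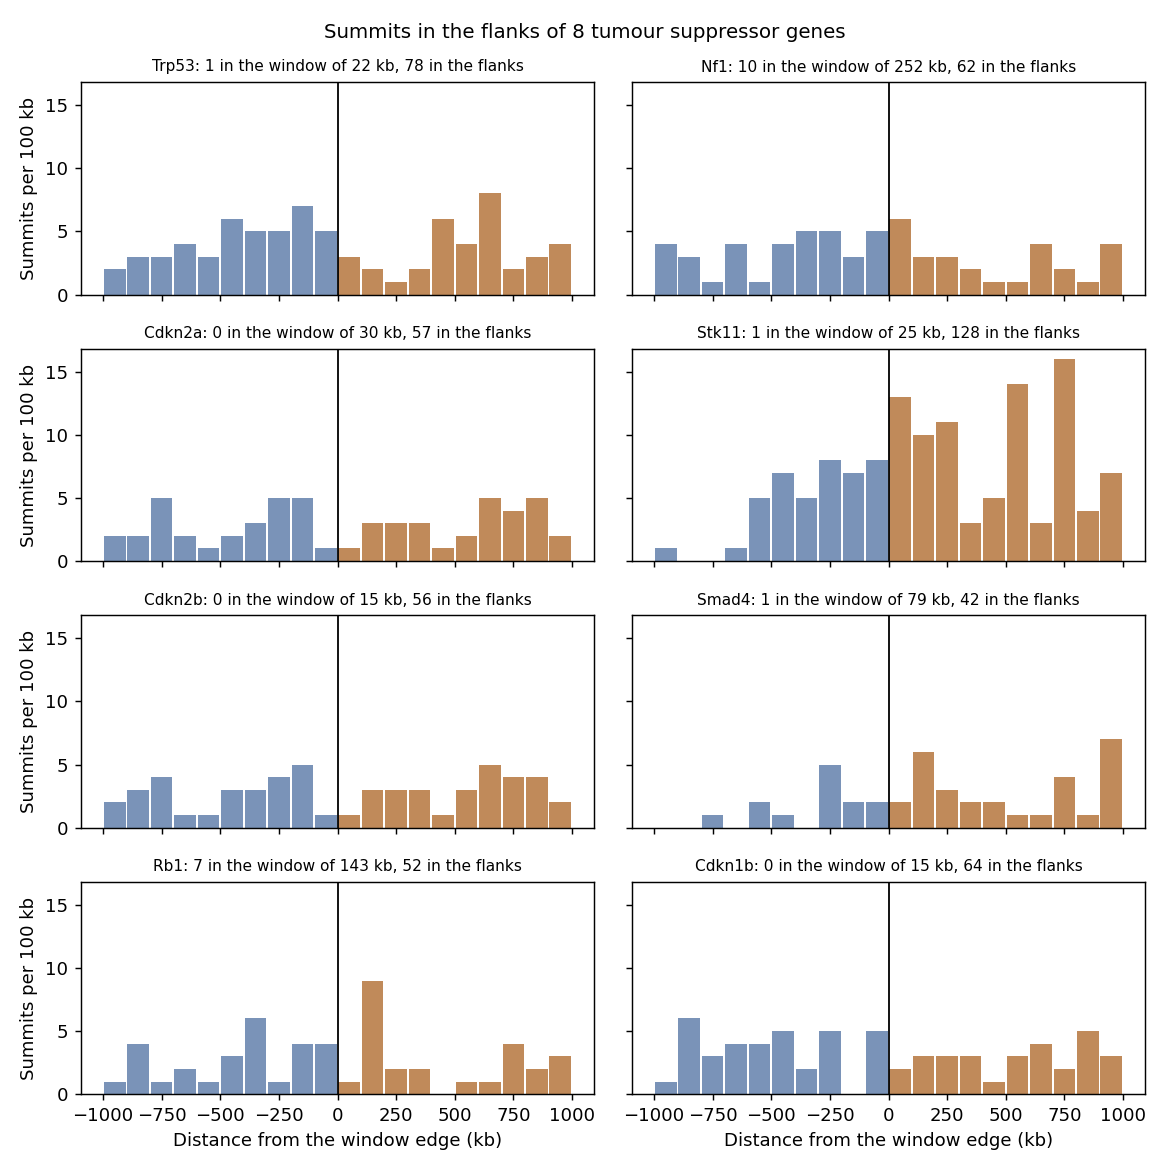
Summits per bin of 100 kb (vertical axis) in the 1 Mb on the lower-coordinate side (blue) and the higher-coordinate side (brown) of the window of each gene, against the distance from the window edge in kb. Stk11 has the fullest bins, up to 16 summits, Smad4 has 4 empty bins, and Trp53, Cdkn2a, Cdkn2b and Nf1 have none.

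The longest summit-free stretches in the flanks lay away from the genes themselves. At Stk11 it was 313 kb long, ended 621 kb below the gene, and held the pheromone receptor genes Vmn2r81, Vmn2r82 and Vmn2r83. At Smad4 it was 285 kb long and 738 kb away, and at Rb1 205 kb long and 385 kb away, and neither held a whole protein-coding gene, nor did that at Cdkn1b, 152 kb long. Near Cdkn2a and Cdkn2b it was 147 kb long, ended 413 kb below Cdkn2a and held 22 protein-coding genes, among them the ubiquitin ligase adaptor gene Klhl9, the interferon gene Ifnz, and Gm13288, Gm13275 and Gm13277. Receptor and interferon genes form families of close copies, and the sources used here do not give the handling of reads that match more than 1 copy. The stretch near Nf1 (162 kb) held 9 genes, the longest being Sarm1, Tnfaip1, Poldip2, Tmem97 and Slc46a1. That near Trp53 (138 kb) held 14, the longest being Zbtb4, Nlgn2, Chrnb1, Tnk1 and Fgf11. Stretches of these lengths were common near genes. From 19.1% (Stk11) to 68.3% (Trp53) of protein-coding genes had one at least as long in the same reach, and the median over all genes was 171 kb.

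Peaks of high fold occurred in the same neighbourhoods. In the flanks of Smad4, the peak of highest fold, 1042 with 74 tags, rank 38 of the list, stood 707 kb above the gene. At Trp53, a peak of 91 tags with a fold of 1017, rank 45, lay 807 kb below the gene in Myh10, a nonmuscle myosin gene. At Stk11 the highest had 74 tags and a fold of 920 and lay 169 kb above it in Apc2, a relative of the tumour suppressor Apc. For Cdkn1b it was a peak of 95 tags with a fold of 743, 737 kb below the gene in Etv6, which encodes an ETS-family transcription factor. The windows of Trp53, Stk11 and Smad4 held 1 peak each, of 3, 3 and 6 tags. Those are well below the highest of 78, 128 and 42 flank peaks, a comparison of unequal numbers of peaks. The median flank peak of these genes held 5, 5 and 5.5 tags.

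Protein-coding neighbours with a summit in their own window lay at differing distances. Of those that overlap one of the 8 genes, Cbarp overlaps the end of Stk11 and had 4 summits, and Omg lies inside Nf1 and had 2. The nearest on each side that do not overlap are given next. For Trp53 these were Wrap53, 0.098 kb away, and Shbg at 18.4 kb. For Stk11 they were Sbno2 at 9.66 kb and Atp5d at 8.02 kb, and for Rb1 they were Rcbtb2 at 8.80 kb and Itm2b at 36.3 kb. Nf1 had Rab11fip4, with 7 summits, at 9.41 kb and Ksr1, a scaffold of the RAS pathway with 6, at 193 kb. Smad4 had Elac1 at 31.2 kb and Mex3c at 42.2 kb, and Cdkn1b had Gpr19 at 22.2 kb and Apold1 at 56.5 kb. For Cdkn2a and Cdkn2b they were Mtap, a methionine salvage enzyme gene, at 93.4 kb and 125 kb, and Dmrta1 at 394 kb and 377 kb.

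No summit lay at the annotated starts of 6 of the genes, as at most starts of all genes. The RefSeq table of starts (250 bases before to 50 after the first base, GRCm38.p6) held 7 entries for 6 of the genes, and 0 of the 7 held a summit. Rb1 and Smad4 had no entry. Among all 32619 entries, 1.31% held a summit, so 0 of 7 does not set these genes apart. The closest summit was 15.7 kb from the start of Stk11, 51.1 kb from that of Cdkn1b and 63.5 kb from that of Cdkn2b.

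Peaks wholly within such an entry were looked for in the neighbourhoods of all the genes but Smad4, which was not searched. In those neighbourhoods 3 such peaks were found, which makes their own DNA visible. They are printed as the 250 bases before the first base, 5′ to 3′ on the gene's strand, with the part of the peak that falls there in capitals. The first was in the Nf1 flanks, at LOC108167316 (chr11:79872389-79872638, minus strand), with 4 tags, a fold of 179.5 and a summit 69 bases before the first base. The other two were in the Stk11 flanks. At Mier2, a gene for a chromatin regulator (chr10:79555129-79555378, minus strand), the peak held 6 tags with a fold of 168, and its summit lay 35 bases before the first base. At Gm40713 (chr10:79807041-79807290, minus strand) it held 3 tags with a fold of 82.1, and its summit lay 63 bases before. The GC content of the capitals was 63.0% at LOC108167316, 71.4% at Mier2 and 57.1% at Gm40713, and they held 1, 12 and 2 CpG.
LOC108167316: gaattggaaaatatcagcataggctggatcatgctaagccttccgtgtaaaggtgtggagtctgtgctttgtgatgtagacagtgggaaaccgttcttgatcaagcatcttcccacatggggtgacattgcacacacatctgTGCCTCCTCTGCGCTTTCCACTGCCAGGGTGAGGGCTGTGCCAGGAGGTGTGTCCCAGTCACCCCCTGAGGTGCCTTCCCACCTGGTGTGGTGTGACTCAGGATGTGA
Mier2: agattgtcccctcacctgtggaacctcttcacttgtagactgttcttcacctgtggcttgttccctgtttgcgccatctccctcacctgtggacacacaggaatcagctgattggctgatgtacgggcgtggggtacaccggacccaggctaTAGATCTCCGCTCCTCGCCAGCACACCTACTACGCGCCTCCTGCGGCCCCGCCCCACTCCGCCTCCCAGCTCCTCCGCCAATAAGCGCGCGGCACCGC
Gm40713: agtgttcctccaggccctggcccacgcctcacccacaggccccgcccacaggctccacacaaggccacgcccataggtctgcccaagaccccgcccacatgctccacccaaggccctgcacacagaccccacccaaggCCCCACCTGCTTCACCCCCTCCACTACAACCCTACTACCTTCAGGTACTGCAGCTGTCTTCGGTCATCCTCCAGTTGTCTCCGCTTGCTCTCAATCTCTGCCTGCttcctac

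Genes that work with these 8 were counted in the same way. Of 84 further genes in 6 lists, 63 (75.0%) had a summit in the window, and 0 were called against their flanks in either direction. Over all tested genes, 0.0794% were called with more summits and 0.042% with fewer, so 0 of 84 does not set these genes apart. The median ratio of counted to predicted summits was 0.824 over the 84 genes. The lists were not matched on length, so their shares are set beside the 60.8% of all genes as a description only.

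Around p53, 10 of 14 genes had a summit, and their 25 summits compared with 40.9 predicted. The highest folds were at Atm, the kinase that signals DNA breaks to p53 (593, 24 tags), and Chek2, a kinase below it (329, 11 tags). Mdm2, which targets p53 for degradation, had 0 summits with 1.32 predicted. The cell death genes Bax, Bbc3 and Pmaip1 also had 0, with 0.722, 0.877 and 0.576 predicted. Predictions this small cannot show a deficit. Cdkn1a, the kinase inhibitor that p53 induces, had 1 peak, of 8 tags, with 0.859 predicted. Around RB, 10 of 16 genes had a summit, 37 in all with 29.8 predicted. The cyclin gene Ccnd3 (fold 961, 107 tags) and the E2F gene E2f3 (572, 32 tags) were highest. Of the other inhibitors of cyclin-dependent kinases in that list, Cdkn2c and Cdkn2d had 0 summits, with 0.413 and 1.09 predicted. Cdkn1c had 1, with 0.611 predicted.

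For RAS, the switch that neurofibromin turns off, 11 of 13 genes had a summit, 47 in all with 37.6 predicted, led by the RAS-inactivating gene Rasal2 (fold 410, 27 tags) and the phosphatase gene Ptpn11 (329, 22 tags). For LKB1, 10 of 13 genes had a summit, 45 with 40.7 predicted, led by Tsc1, an inhibitor of mTOR signalling (599, 48 tags), and Strada, a partner of LKB1 (381, 16 tags). For SMAD signalling, 11 of 13 had a summit, 48 with 39.8 predicted, led by the SMAD corepressor gene Ski (768, 81 tags) and the inhibitory Smad6 (368, 26 tags). Smad2, a direct partner of Smad4, had 0 with 3.23 predicted (exact binomial p = 0.078). Of 15 other tumour suppressor genes, 11 had a summit, 39 with 43.9 predicted, led by the chromatin remodelling gene Arid1a (277, 11 tags) and Fbxw7, part of a ubiquitin ligase (241, 6 tags). Mdm2, Bax, Bbc3, Pmaip1, Cdkn1a, Cdkn2c, Cdkn2d, Cdkn1c and Smad2 were chosen for mention after their values were seen.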

How the data were processed

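ChIRP libraries of 4T1-TGL cells, sequenced as single reads of 76 nt per the labels, were deposited as 3 files of 1 peak list. Per the file headers, MACS 1.4.4 compared a merged treatment (988411 tags, 851227 after duplicate removal) with an input (52861677, 50030325 after), scaled the larger to the smaller, and used a fragment length of 53 bp and a p cutoff of 1e-05. The sources used here do not give the aligner. Per the submitters' processing notes, coordinates are on mm10 (GRCm38).

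The deposited tag count of a peak is a whole number of treatment tags. The deposited fold enrichment is a ratio over scaled local input, the score as deposited is -log10 of the peak's p multiplied by 10, the deposited summit signal is the tag height, and the percent of false discoveries was deposited as 0 throughout. The implied input is summit height over fold, divided by 0.0167 background tags per fragment length (effective genome size 2.7 gigabases).

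Genes and starts came from RefSeq GRCm38.p6, matched by symbol (all 8 genes, and 84 of 84 pathway genes). The gene table gives neither exons nor introns. Flanks ended where a chromosome's annotated genes and summits end. A flank prediction is flank summits times window length over flank length. Exact binomial tests ran for 21420 protein-coding genes with Benjamini-Hochberg adjustment and a threshold of 0.05, and were tested on simulated data. The simulated counts were independent, and excesses were planted only in genes with larger predictions. The simulation thus does not bear on deficits, on clustered summits or on the small predictions of most of the 8 genes. Python 3.11.15, scipy 1.17.1 and pandas 2.3.3 were used.

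Members and lists were chosen with earlier results of these data known. Named were the 8 genes with every window peak, their nearest neighbours with a summit, up to 5 of the longest genes inside their longest stretch, and the 2 genes of highest fold and any called gene of each pathway list. Likeness across samples could not be given, since there is 1 list. Alternatives were scores of at least 100, no peaks of 3 tags, peaks at or above the median fold, other windows (body alone, 10 kb, any overlap of the interval), other flanks (500 kb, 2 Mb), and stretches between peak edges.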

Additional observations from a re-analysis of the deposited data

How the results depend on the processing

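The number of the 8 genes with a summit fell from 5 to 3 under each of 4 settings: scores of at least 100, no peaks of 3 tags, peaks at or above the median fold, and the body alone. Distinct summits in the windows fell from 20 to 8 with scores of at least 100, and to 10 without peaks of 3 tags and to 10 at or above the median fold. These settings hold fewer peaks or less sequence by construction. No gene of the 8 and none of the 84 pathway genes was called under any of the 7 alternatives of window, flank or peak filter that were tested; the lowest adjusted p of any of the 8 was 0.85. In all, 0 to 65 protein-coding genes were called (26 as reported), at most 0.302% of those tested. Ratios to the flank prediction changed side of 1 in 9 of 56 cases: Trp53 was at 0 in scores of at least 100, without peaks of 3 tags, at or above the median fold and in the body alone, Rb1 was at 0.538 and 0.847, Stk11 at 1.83 and Smad4 at 1.05 and 1.10, as given above. The longest stretch in reach grew when peaks were left out, up to 836 kb at Stk11 with scores of at least 100. No paired analysis was possible because each group has 1 library and the list holds no value per library. With 1 merged treatment, peaks of 3 tags set the limit of what can be told.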

Other observations

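Unadjusted p in the exact binomial test was below 0.05 for 4 of the 84 pathway genes and for 5.28% of all tested genes. The count of 4 thus does not set the lists apart, and none of the 4 passed the adjustment over all genes. These were chosen after their values were seen. Spred2, a suppressor of RAS signalling, held 10 summits where its flanks predicted 2.25 (exact binomial p = 0.00026, adjusted p = 0.14). The Spred2 peak of highest fold had 8 tags and a fold of 239 at an implied input of 1.00. That prediction rests on sparse flanks, which held 41 summits against 42 at Smad4, the gene with the sparsest flanks of the 8. E2f1, a transcription factor restrained by RB, held 5 with 1.21 predicted (exact binomial p = 0.00865, adjusted p = 0.58). Arid1a held 9 with 4.34 predicted (exact binomial p = 0.048, adjusted p = 0.94). Brca1, a DNA repair gene on chromosome 11, held 2 where its flanks predicted 8.31 (exact binomial p = 0.029, adjusted p = 0.80). That prediction rests on dense flanks, which held 227 summits against 128 at Stk11, the gene with the densest flanks of the 8.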
